A study of Homo sapiens with 28 samples.

Results

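Membrane transporters and pumps move nutrients, ions and metabolites across the plasma membrane and the membranes of organelles. The solute carriers (gene names beginning SLC) work as uniporters, symporters or exchangers, and the P-type and V-type ATPases (ATP1, ATP2 and ATP6 genes) and the ABC transporters spend ATP to drive transport. Their mRNAs were taken from the RNA degradation rate constants in the authors' deposited table, by name alone: SLC, ABCA to ABCG, ATP1 (alpha and beta subunits), ATP2A, ATP2B, ATP2C, ATP6V or ATP6AP. This gave 43 of 2568 transcript names, of which 30 were SLC, 5 ABC, 3 ATP1, 2 ATP2 and 3 ATP6. The name is not always the function. SLC2A4RG and SLC9A3R2 fit the name rule but are a regulator of a glucose carrier gene and a scaffold protein, and ABCF2 is a soluble ABC protein without membrane domains.

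The study used nucleotide-recoding RNA sequencing in HEK293T, an established line from human embryonic kidney whose genotype the labels give as wild type. Cells were given 100 µM 4-thiouridine (s4U) for 2 h, or none, and after RNA isolation a recoding reaction made s4U positions read as C. A transcript that is replaced quickly holds much converted RNA after the labelling period, and its first-order degradation rate constant is high. A stable transcript has a low constant. The series holds further chemistries that were not used here, and the chemistries of the rate constants were NaIO4 with TFEA at pH 5.2, called periodate here, iodoacetamide alkylation (spelled iodoacetimide in the labels), and OsO4 with NH3, called osmium here. Each of these 3 was applied after drop-out handling (DO) or improved handling (IH, meant to limit the loss of labelled RNA). Every combination had 2 labelled libraries and a single unlabelled one. The labels do not say whether the replicates came from separate cultures.

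All 18 of these libraries share the cell line and its genotype label. In the HISAT-3N alignments of the deposited count table the 12 labelled libraries held 867400 to 2735236 exonic gene reads each. Between 10.4% and 17.4% of those reads carried at least 1 T-to-C mismatch under DO and between 24.7% and 33.2% under IH, against 2.56% to 3.57% in the 6 unlabelled libraries. Under DO the labelled libraries of replicate 1 held 15.1% to 17.4% and those of replicate 2 held 10.4% to 12.5%, so replicate 1 was higher in each chemistry; under IH it was higher in 2 of 3. The DO values of the chemistries thus share a pattern by replicate number, and its part in their likeness was not tested. That share rose with handling over the whole of the libraries, and its part in the changes of single transcripts was not tested. The Ensembl identifiers of the count table were not paired with symbols by the reference table used here, so each member is described by its deposited constants. The authors' deposited table gives 1 constant per transcript, chemistry and handling, with a log2 change (IH over DO) and its adjusted p, and no error for a constant. Its time unit is not stated. "Called" means an adjusted p under 0.05 in that table. It lists rates rather than expression levels, so the cell line was not checked against marker genes.

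Of the 43 members, 21 were listed for all 3 chemistries, 16 for 2 and 6 for 1. The authors' deposited table held 40 members for periodate, 24 for iodoacetamide and 37 for osmium, among 2209, 1600 and 2262 transcripts. In RefSeq (GRCh38.p14; the submitters' processing notes name GRCh38) all 43 were found, SLC9A3R2 under its current symbol NHERF2. The genomic span of 11 members overlaps another protein-coding gene, for example SLC19A1 with COL18A1, SLC39A1 with CREB3L4 and SLC37A4 with TRAPPC4. The overlaps were found without regard to strand, although the libraries were stranded. How reads in such overlaps were counted is not given in the sources used here, so values of these members may be less certain.

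The rate constants of transporter and pump mRNAs as a set lay near those of other transcripts. The deposited log2 change was above 0 in 94 of 101 values, or 93.1%, close to the 92.5% of all values of the table. In the authors' deposited table the members' median IH constant was 0.102 with periodate, 0.0801 with iodoacetamide and 0.0851 with osmium. The medians of the other transcripts were 0.102, 0.0835 and 0.0999 in the same order. Under DO the members' deposited medians were 0.0366, 0.0325 and 0.0407, and those of other transcripts 0.0430, 0.0354 and 0.0411. The median over the members was lower with the mitochondrial carriers than without them. With them it was 0.851 to 0.998 times that of other transcripts over both handlings and all chemistries. Without the 7 SLC25 members it was 1.03 to 1.33 times. These 7 had low constants as a group, so leaving them out moves the median up by itself. Leaving out a group with high constants was not computed, so the ratios above 1 do not set the other members apart. The whole-set medians hide a wide spread among members. Over the 21 members listed for all chemistries, the highest median IH constant (SLC3A2) was 14.9 times the lowest (SLC25A5), while the same member differed by a median factor of 1.46 between its highest and lowest chemistry.

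**Figure D1:**
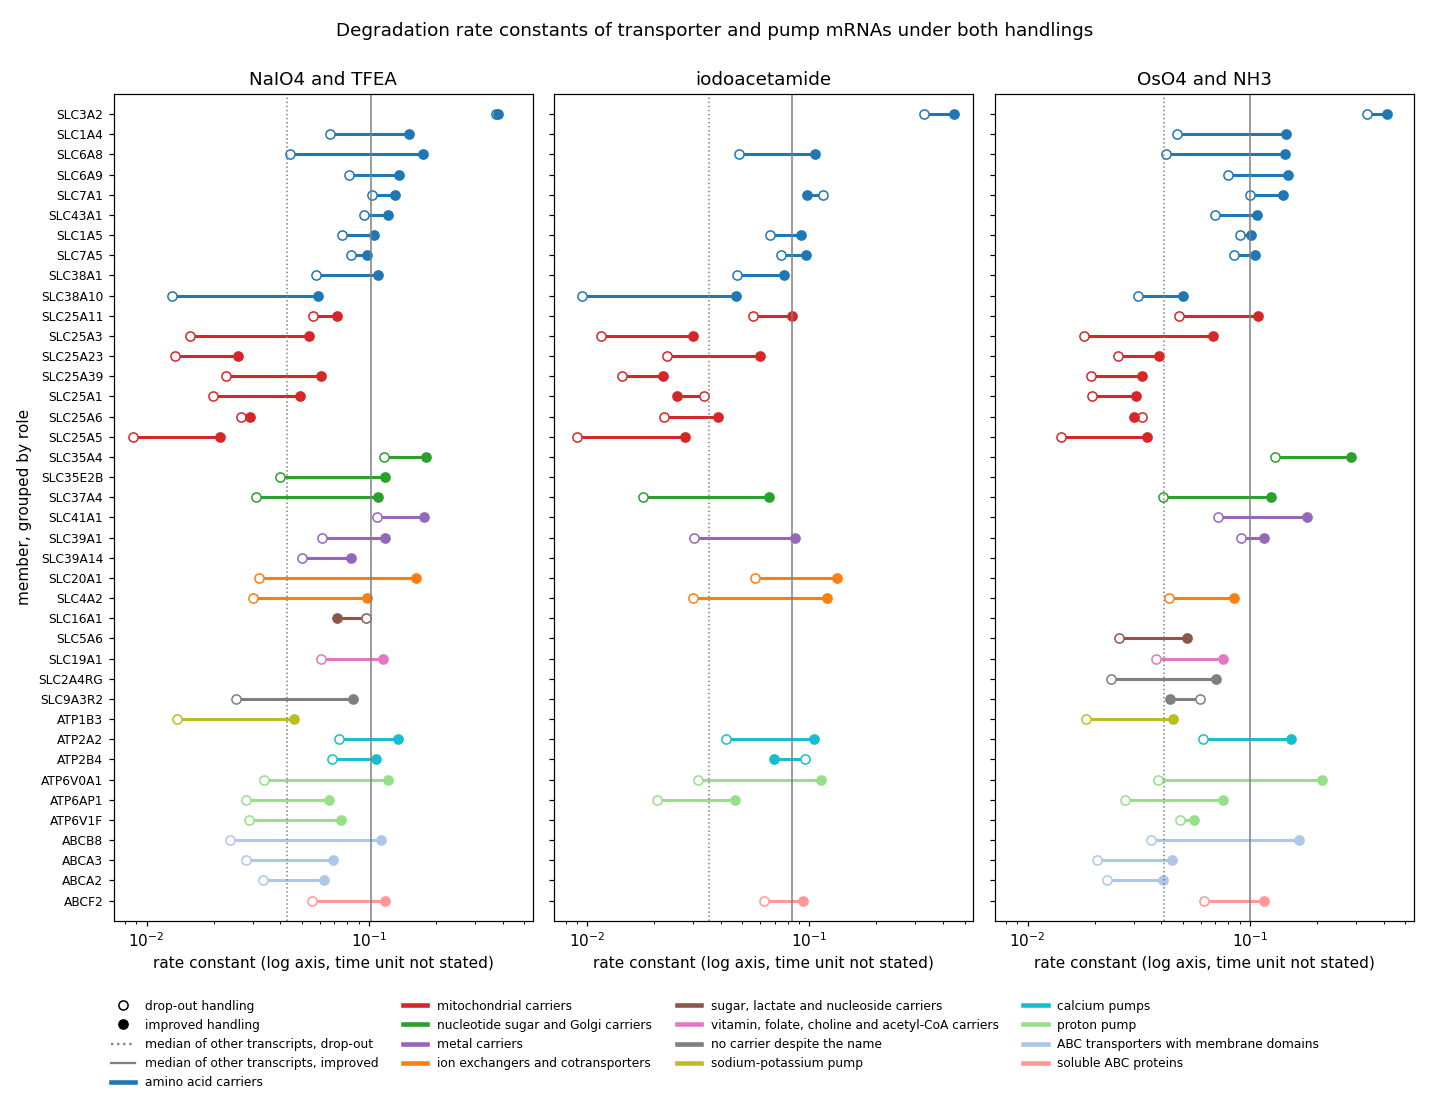
Deposited rate constants of 40 of the 43 members (rows, coloured by role) with each chemistry, on a log axis whose time unit is not stated. Open circles are DO, filled circles IH, and vertical lines mark the medians of the other transcripts (dotted DO, solid IH). SLC3A2 lies far to the right of the solid line in all 3 panels, between 0.379 and 0.447 under IH, and most SLC25 members lie to its left.

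The first comparison asked how many members had a higher constant under IH than under DO. With periodate, 14 of 40 members were called higher in the authors' deposited table, a share of 35%, where 52.6% of all transcripts were. With iodoacetamide it was 12 of 24 members, or 50%, beside 48.9% of all transcripts. With osmium it was 14 of 37 members, or 37.8%, beside 48.1%. Among the 21 members listed for all 3 chemistries, 10 were called with periodate, 11 with iodoacetamide and 10 with osmium. The share of all transcripts so listed was not computed by chemistry, so these 3 counts cannot be read against it. Of all transcripts listed for all 3, 36.2% were called in all 3 and 29.6% in none, beside 23.8% and 28.6% of these 21 members. No member was called lower with any chemistry in bakR's test, and of all transcripts only 0.679%, 1.44% and 0.442% were, so this count of 0 does not set the members apart. The table gives no unadjusted p. The median deposited log2 change of members was 1.06, 1.15 and 0.99 with periodate, iodoacetamide and osmium, and that of other transcripts 1.18, 1.14 and 1.19. Transcripts are not replicates, so these shares and medians are descriptions without a test. At an adjusted p under 0.1 the members called were 23 with periodate, 13 with iodoacetamide and 16 with osmium, beside 62.9%, 57.2% and 57.7% of all transcripts. At 0.01 they were 7, 5 and 7, beside 33.5%, 32.4% and 27%.

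**Figure D2:**
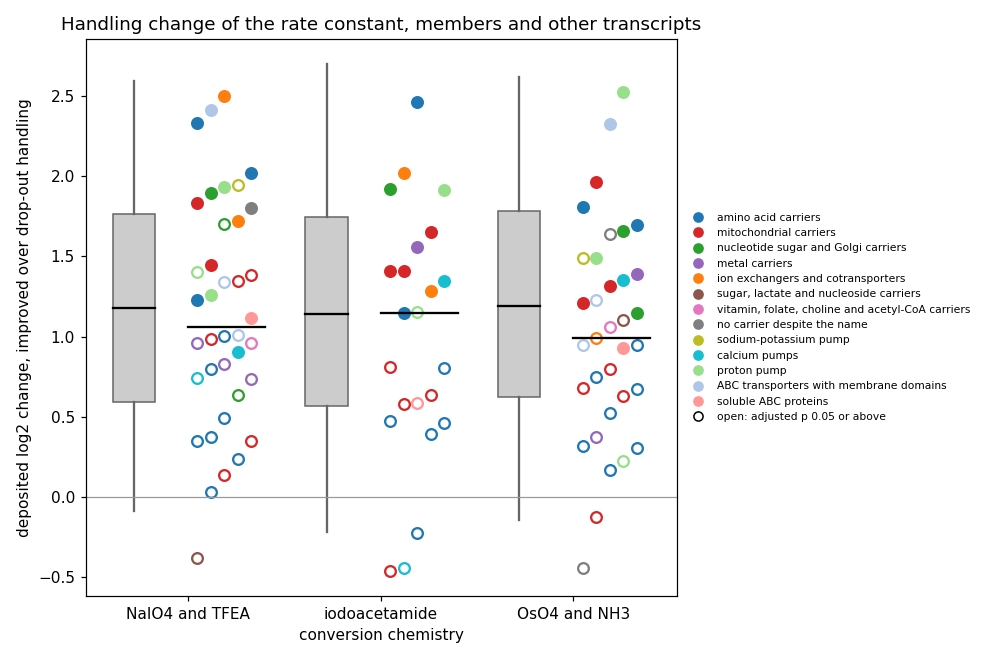
Deposited log2 change of the rate constant (IH over DO) by chemistry. Grey boxes span the interquartile range of the other transcripts with their median, whiskers run from their 5th to their 95th percentile, points are 40 of the 43 members coloured by role, filled where the adjusted p was under 0.05, and the black line beside them is the median of all members. Filled points lie between 0.90 and 2.53, and the members below 0 are all open.

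Over the chemistries, 22 members were never called and 21 were called at least once, where 59.9% of all transcripts were called at least once. Of the 21 listed for all 3 chemistries, 5 were called in all 3, a share of 23.8%, where 36.2% of all transcripts so listed were. These 5 were SLC6A8, SLC25A3, SLC37A4, ATP2A2 and ATP6V0A1, which carry creatine, mitochondrial phosphate, glucose-6-phosphate, calcium and protons. Another 6 were called in 2 chemistries, 4 in 1 and 6 in none, beside 17.3%, 16.9% and 29.6% of all transcripts so listed. The 6 without a call were SLC1A5, SLC3A2, SLC7A1, SLC7A5, SLC25A1 and SLC25A6. Of the members listed for 2 chemistries, ABCB8, SLC1A4 and SLC20A1 were called in both, which is 3 of 16, where 31.2% of all transcripts listed for 2 were.

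Amino acid carriers had a median constant above that of other transcripts and a smaller median handling change, with exceptions on both counts. The fixed list named 10 members in the table, and their median IH constant was 0.126 with periodate, 0.0969 with iodoacetamide and 0.142 with osmium in the authors' deposited table. The IH medians of other transcripts were 0.102, 0.0835 and 0.0999. Under DO the median of the list was 0.0784, 0.0665 and 0.0798, beside 0.0430, 0.0354 and 0.0411 for other transcripts. The median log2 change of the list was 0.64, 0.47 and 0.67, beside 1.18, 1.14 and 1.19 for other transcripts. This change compares the DO and IH constants, so it is not a trait separate from them. Below the median of other transcripts under IH were SLC38A10 with all 3 chemistries, SLC38A1 with iodoacetamide and SLC7A5 with periodate. Of 26 values, 7 were called higher, where 50% of all 6071 values of the table were, and all 7 belonged to SLC1A4, SLC6A8 and SLC38A10, whose log2 changes reached 1.70, 2.02 and 2.47. Not every gene of the list carries amino acids itself. SLC6A8, which gave 3 of the 7 calls, carries creatine, and SLC3A2 brings the light chains of exchangers to the membrane. The 7 members of the list without a call had 18 values, with deposited log2 changes from -0.23 to 1.0.

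SLC3A2 encodes the heavy chain of CD98, which brings the light chains of several amino acid exchangers to the plasma membrane. Its gene lies on chromosome 11, 62856109 to 62888860. In the authors' deposited table its constants under DO were 0.374 with periodate, 0.327 with iodoacetamide and 0.336 with osmium, and under IH 0.379, 0.447 and 0.413. This is the highest constant of any member in every chemistry and handling, above 96.2%, 98.9% and 97.7% of all transcripts under IH. The deposited log2 changes were 0.03, 0.46 and 0.30, with adjusted p of 0.917, 0.110 and 0.311.

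SLC7A5, the light chain LAT1 that pairs with SLC3A2 and exchanges large neutral amino acids, had much lower constants than its partner. They were 0.0834, 0.0743 and 0.0849 under DO and 0.0976, 0.0969 and 0.105 under IH with periodate, iodoacetamide and osmium in the authors' deposited table. The SLC3A2 constant was thus 4.48, 4.40 and 3.96 times that of SLC7A5 under DO and 3.89, 4.61 and 3.92 times under IH. The partners' ratio thus moved little, beside the 1.46-fold median difference of a single member between chemistries. Of the 21 members listed for all 3 chemistries, SLC7A5 had the IH constants that differed least between them, by a factor of 1.09.

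SLC7A1, which imports cationic amino acids, had deposited constants of 0.103, 0.115 and 0.0996 under DO and 0.131, 0.0975 and 0.142 under IH. Its log2 change in the authors' deposited table was 0.35 with periodate, -0.23 with iodoacetamide and 0.52 with osmium (adjusted p 0.232, 0.516 and 0.157). SLC1A5, the glutamine carrier ASCT2, had constants of 0.0756, 0.0665 and 0.0905 under DO and 0.106, 0.0916 and 0.101 under IH in that deposited table. Its log2 changes of 0.49, 0.47 and 0.17 did not pass (adjusted p 0.0920, 0.159 and 0.641). SLC38A1, a sodium-coupled glutamine carrier, SLC43A1, a carrier of branched-chain amino acids, and SLC6A9, the glycine carrier, were listed for 2 chemistries each without a call. Their deposited IH constants lay between 0.0771 and 0.148.

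Among the carriers of this list that rose was SLC6A8, the creatine carrier on the X chromosome (153687926 to 153696593). In the authors' deposited table its constants were 0.0440, 0.0482 and 0.0420 under DO and 0.175, 0.107 and 0.144 under IH. Its log2 change was 2.02 with periodate, 1.15 with iodoacetamide and 1.81 with osmium (adjusted p 0.000234, 0.0383 and 0.00336). Under DO it therefore lay at or somewhat above the median of other transcripts, and under IH above it in each chemistry. SLC1A4, which carries alanine and serine, rose from 0.0671 to 0.152 with periodate and from 0.0470 to 0.145 with osmium in the deposited table (adjusted p 0.0293 and 0.0190). Its constant was below that of its paralog SLC1A5 under DO, by ratios of 0.887 and 0.519, and above it under IH, by ratios of 1.44 and 1.43. A single member listed for all 3 chemistries differed between them by a median factor of 1.47 under DO and 1.46 under IH. Only the ratio of 0.519 lay further from 1 than that.

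SLC38A10, a member of the same family as SLC38A1, had DO constants that differed widely between chemistries. Its DO constants in the authors' deposited table were 0.0130 with periodate, 0.00952 with iodoacetamide and 0.0313 with osmium, the widest relative range of any member under DO (factor 3.29). Under IH they lay close together, at 0.0590, 0.0469 and 0.050. The deposited change was called with periodate (log2 2.33, adjusted p 0.0132) and iodoacetamide (2.47, adjusted p 0.0384), and had an adjusted p of 0.359 with osmium (0.75). The DO constants with periodate and iodoacetamide were near the low end of the table, above 8.7% and 6.6% of transcripts, and with osmium above 38.6%. No error is given for a constant, so how firm the DO range is is not known.

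Mitochondrial carriers of the SLC25 family exchange metabolites across the inner mitochondrial membrane, and their mRNAs were among the most stable members. In the authors' deposited table the median IH constant of the 7 listed was 0.0492 with periodate, 0.0301 with iodoacetamide and 0.0346 with osmium. The median rank of the 7 was at 17.5%, 11.8% and 7.69% of all transcripts, counted from the lowest constant. Of 21 values, 8 were called higher under IH, beside 50% of all values of the table. The mitochondrial ATP synthase genes (ATP5 names), listed beside them for comparison, had median ranks of 16.5%, 13.7% and 13.3% over 10, 7 and 9 transcripts, with 10 of 26 values called higher, beside the same 50%.

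SLC25A5 and SLC25A6 encode paralogous exchangers of ADP and ATP, both on the X chromosome (119468444 to 119471396 and 1386152 to 1392113). The deposited DO constants of SLC25A5 were 0.00868 with periodate, 0.0090 with iodoacetamide and 0.0142 with osmium, and its IH constants 0.0215, 0.0277 and 0.0346. It was called higher with iodoacetamide (log2 1.66, adjusted p 0.00915) and osmium (1.32, adjusted p 0.0201), and with periodate its log2 change of 1.39 had an adjusted p of 0.0660. SLC25A6 had deposited constants of 0.0266, 0.0222 and 0.0327 under DO and 0.0291, 0.0389 and 0.0300 under IH, with log2 changes of 0.14, 0.81 and -0.12 and no call. The constant of SLC25A6 was 3.06, 2.47 and 2.31 times that of SLC25A5 under DO and 1.36, 1.40 and 0.866 times under IH. The deposited constants of the paralogs thus stood apart under DO in all 3 chemistries and close together under IH. The DO constants of SLC25A5 were near the low end of the table, above 2.2%, 5.6% and 9.3% of transcripts. No error is given for a constant, so how firm the DO ratios are is not known. The 2 genes are similar in sequence, and how reads that fit both were counted is not given in the sources used here. SLC25A6 is also among the members whose span overlaps another protein-coding gene in RefSeq (LOC124900597).

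SLC25A3, the phosphate carrier that feeds the ATP synthase, was the only member of the 7 called with all 3 chemistries. Its deposited constants rose from 0.0156 to 0.0539 with periodate, from 0.0115 to 0.0301 with iodoacetamide and from 0.0179 to 0.0680 with osmium (adjusted p 0.00193, 0.0431 and 0.000456). SLC25A11, the exchanger of oxoglutarate and malate, had the highest IH constants of the family, 0.0721, 0.0832 and 0.109 in the authors' deposited table. It was called with osmium only (log2 1.21, adjusted p 0.0333; 0.35 and 0.58 with periodate and iodoacetamide). Relative to SLC25A5 its constant was 6.44, 6.21 and 3.39 times as high under DO and 3.36, 3.0 and 3.16 times under IH. The DO ratios again rest on the low DO constants of SLC25A5.

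The other 3 mitochondrial carriers differed between chemistries. SLC25A39, a carrier of glutathione, had deposited IH constants of 0.0608 with periodate, 0.0220 with iodoacetamide and 0.0328 with osmium, the widest relative range of any member under IH (factor 2.76). It was called with periodate alone (log2 1.45, adjusted p 0.0363). SLC25A23, which exchanges ATP-magnesium for phosphate, had IH constants of 0.0257, 0.0601 and 0.0389 in the deposited table and was called with iodoacetamide alone (log2 1.41, adjusted p 0.0328). SLC25A1, the citrate carrier, had deposited log2 changes of 1.35, -0.46 and 0.68 (adjusted p 0.0593, 0.570 and 0.351). Whether these chemistries differ for a given transcript was not tested, because the table holds no replicate values.

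**Figure D3:**
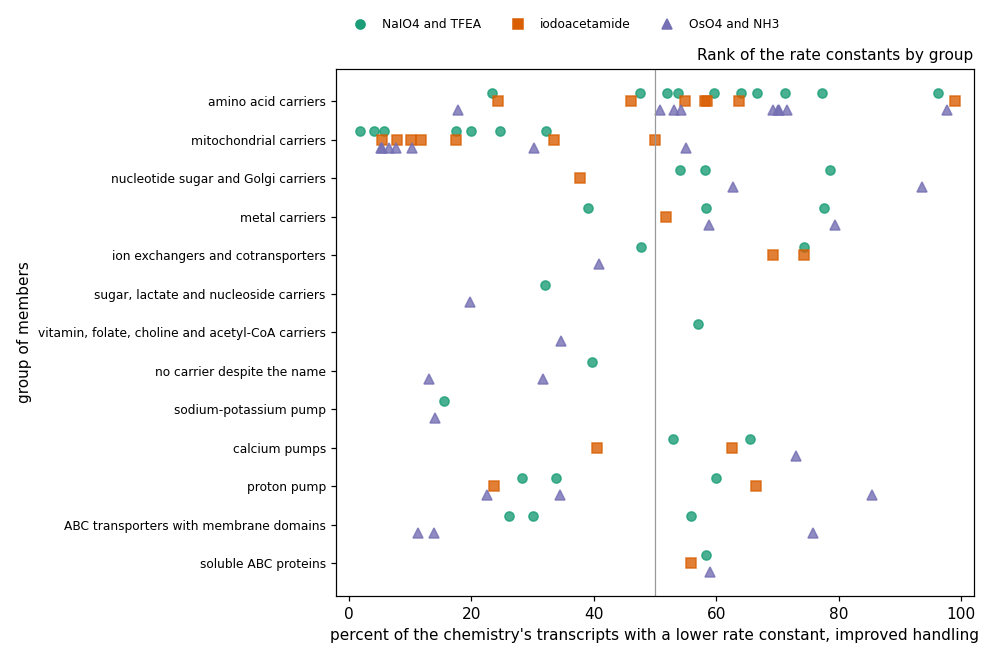
Rank of the IH constant of 40 of the 43 members, as the percent of the chemistry's transcripts with a lower constant, by role (rows) and chemistry (marker). Most mitochondrial carriers lie below 35, whereas SLC3A2, the heavy chain placed in the amino acid list, lies above 96.

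The sodium-potassium pump sets the sodium and potassium gradients of the cell. ATP1B3, a beta subunit needed for assembly and trafficking, had constants of 0.0138 with periodate and 0.0184 with osmium under DO and 0.0462 and 0.0451 under IH in the authors' deposited table. Its IH constants were low, above 15.6% and 14.1% of all transcripts. The deposited log2 changes of 1.95 and 1.49 were not called (adjusted p 0.0596 and 0.159).

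Calcium pumps return calcium to the endoplasmic reticulum or to the outside of the cell. ATP2A2, the pump SERCA2 of the endoplasmic reticulum, rose in all 3 chemistries in the authors' deposited table, from 0.0737 to 0.135 with periodate, from 0.0422 to 0.105 with iodoacetamide and from 0.0614 to 0.153 with osmium. Its adjusted p values were 0.0178, 0.00463 and 0.00622. Under IH it was above 65.5%, 62.6% and 73.0% of all transcripts. ATP2B4, a calcium pump of the plasma membrane, had deposited log2 changes of 0.74 with periodate and -0.45 with iodoacetamide (adjusted p 0.255 and 0.508).

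The V-type ATPase acidifies lysosomes, endosomes and the Golgi. Its membrane sector subunit ATP6V0A1 (chromosome 17, 42458878 to 42522579) had the largest handling change of any member with osmium. In the authors' deposited table its constant rose from 0.0336 to 0.122 with periodate, from 0.0316 to 0.113 with iodoacetamide and from 0.0386 to 0.211 with osmium, log2 changes of 1.94, 1.91 and 2.53 (adjusted p 0.00421, 0.00859 and 0.000171). The accessory subunit ATP6AP1 rose with periodate, from 0.0280 to 0.0660, and osmium, from 0.0274 to 0.0753 (adjusted p 0.0293 and 0.0151), and had a deposited log2 change of 1.15 with iodoacetamide (adjusted p 0.123). The cytosolic sector subunit ATP6V1F had IH constants of 0.0745 with periodate and 0.0562 with osmium in the deposited table, with log2 changes of 1.40 (adjusted p 0.0506) and 0.22 (adjusted p 0.768). The constant of ATP6V0A1 was 1.20, 1.53 and 1.41 times that of ATP6AP1 under DO and 1.85, 2.45 and 2.80 times under IH. Relative to ATP6V1F it was 1.16 and 0.794 times under DO and 1.64 and 3.75 times under IH, with periodate and osmium. The DO ratios were about as far from equality as a single member's constants under DO were between chemistries (median factor 1.47), and both ratios were higher under IH in each chemistry that listed the pair.

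Among the ABC proteins, ABCB8 of the inner mitochondrial membrane had the largest change. It rose from 0.0238 to 0.113 with periodate and from 0.0358 to 0.166 with osmium in the authors' deposited table (log2 2.42 and 2.33, adjusted p 0.0145 and 0.00817). The lipid transporters ABCA2 and ABCA3 were slower than ABCB8 under IH, with deposited constants of 0.0630 and 0.0691 with periodate and 0.0406 and 0.0447 with osmium. They were not called. Under DO their constants were above that of ABCB8 with periodate (0.0334 and 0.0281) and below it with osmium (0.0228 and 0.0204). The soluble ABCF2 was called with periodate (log2 1.12, adjusted p 0.00669) and, at the edge of the threshold, with osmium (0.93, adjusted p 0.04999). With iodoacetamide its deposited change was 0.59 (adjusted p 0.197). ABCB8, SLC4A2 and ABCF2 lie in this order on chromosome 7, with 10417 and 134956 bases between them. Their deposited log2 changes were 2.42, 1.72 and 1.12 with periodate and 2.33, 0.99 and 0.93 with osmium. With iodoacetamide SLC4A2 had 2.02 and ABCF2 0.59, and ABCB8 was not listed. A link between position and change was not tested.

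**Figure D4:**
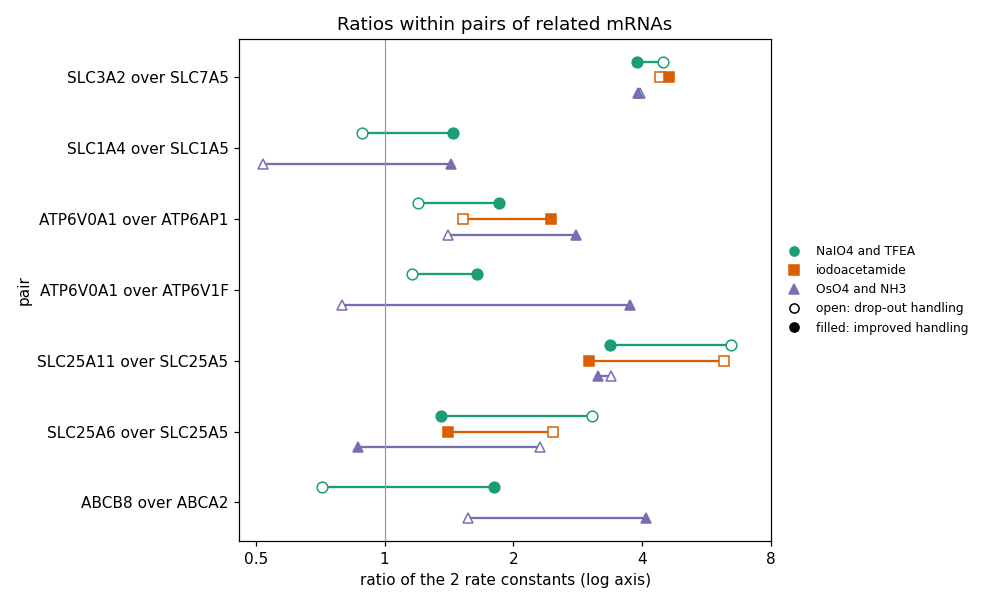
Ratio of the deposited rate constants of 2 related mRNAs (rows) on a log axis, open for DO and filled for IH, with a marker for each chemistry. The SLC3A2 to SLC7A5 ratio stays between 3.89 and 4.61, whereas SLC25A6 moves towards SLC25A5 and ATP6V0A1 away from ATP6AP1 under IH in all 3 chemistries.

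The remaining solute carriers are given by cargo. The ion carriers listed were 2 genes, with 4 of 5 values called higher in the authors' deposited table, beside 50% of all values. With SLC9A3R2, which fits the list's name pattern but was set apart as no carrier after the names were seen, it was 5 of 7. SLC20A1, a sodium-coupled phosphate importer, rose from 0.0319 to 0.163 with periodate and from 0.0567 to 0.133 with iodoacetamide (adjusted p 0.00317 and 0.0484). SLC4A2, an exchanger of chloride and bicarbonate, rose from 0.0302 to 0.0979 and from 0.0301 to 0.120 with the same chemistries (adjusted p 0.00118 and 0.000733). With osmium its deposited change of 0.99 had an adjusted p of 0.0566.

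Carriers of the endoplasmic reticulum and Golgi were called higher in 4 of 6 values of the authors' deposited table, beside 50% of all values, and 3 of the 4 were of SLC37A4. SLC37A4, which brings glucose-6-phosphate into the endoplasmic reticulum, rose from 0.0309 to 0.110 with periodate, from 0.0179 to 0.0656 with iodoacetamide and from 0.0407 to 0.124 with osmium. SLC35A4, of the nucleotide sugar carrier family, had the second highest deposited IH constant of any member with periodate (0.180) and osmium (0.284). It was called with osmium (log2 1.15, adjusted p 0.0117) and had a log2 change of 0.63 with periodate (adjusted p 0.162). SLC35E2B, of the same family, had a deposited change of 1.70 with periodate (adjusted p 0.0532).

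Metal carriers were called higher in 2 of 6 values of the authors' deposited table, beside 50% of all values. SLC41A1, a magnesium transporter, rose with osmium from 0.0718 to 0.180 (adjusted p 0.0303) and had a deposited log2 change of 0.73 with periodate (adjusted p 0.173). SLC39A1, a zinc importer, rose with iodoacetamide from 0.0302 to 0.0864 (adjusted p 0.0328) and was not called with periodate (0.96, adjusted p 0.0505) or osmium (0.37, adjusted p 0.488). SLC39A14, an importer of zinc and iron, had a deposited change of 0.83 with periodate (adjusted p 0.239).

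SLC16A1, the lactate and pyruvate carrier MCT1, was listed for periodate only and had the lowest change there. Its constants in the authors' deposited table were 0.0971 under DO and 0.0719 under IH (log2 -0.38, adjusted p 0.454), and 2.63% of the transcripts listed for periodate had a lower log2 change. SLC19A1, the folate carrier, had deposited log2 changes of 0.96 and 1.06 with periodate and osmium (adjusted p 0.109 and 0.178), and SLC5A6, which carries biotin and pantothenate, had 1.11 with osmium (adjusted p 0.229). Of the misleading names, SLC9A3R2 was called with periodate (1.80, adjusted p 0.0176) and had a deposited change of -0.45 with osmium (adjusted p 0.559), and SLC2A4RG had 1.64 with osmium (adjusted p 0.0819).

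The chemistries ordered the members alike. Spearman's rho of the deposited IH constants was 0.919 between osmium and periodate over 34 members, 0.849 between iodoacetamide and osmium over 21 and 0.840 between iodoacetamide and periodate over 24. For other transcripts it was 0.935, 0.922 and 0.937. The log2 changes were less alike, with rho of 0.439, 0.534 and 0.564 among members in the same order and 0.710, 0.714 and 0.706 among other transcripts. The order of members under DO and under IH gave rho of 0.775 with periodate, 0.686 with iodoacetamide and 0.730 with osmium. For other transcripts it was 0.783, 0.765 and 0.782. These coefficients over transcripts of the authors' deposited table are descriptions, since transcripts of a chemistry share its libraries.

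Transport genes outside the name rule were counted from lists fixed by name. The share to read them against is the 50% of all values called higher. Other P-type ATPases were called higher in 7 of 9 values of the authors' deposited table, which came from 4 genes. Among them, the ATPase ATP13A1 of the endoplasmic reticulum (log2 1.77, 1.58 and 2.65 with periodate, iodoacetamide and osmium) and the lipid flippase ATP8B2 (2.22, 2.37 and 2.65) were called in all 3 chemistries. ATP13A2 was called with osmium (2.30, adjusted p 0.0327) and not with periodate (0.19, adjusted p 0.880). ATP9A, listed for periodate only, was not called (1.78, adjusted p 0.0532). Channel genes were called in 6 of 15 values, with VDAC1, the main pore of the outer mitochondrial membrane, at deposited IH constants of 0.0555, 0.0507 and 0.0545. Transporter partners and carriers of other families were called in none of 4 values. Of these, BSG, the chaperone that takes SLC16A1 to the plasma membrane, had deposited IH constants of 0.0247, 0.0244 and 0.0288, and MFSD12 was listed for osmium only (0.0762).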

How the data were processed

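RNA from HEK293T cells was made into stranded total-RNA libraries, per the labels' protocols. The authors deposited 1 table of counts (reads per library, aligner, settings, gene and number of T-to-C mismatches) and 1 table of bakR results. The latter holds the authors' rate constants (no stated time unit), the deposited log2 change between handlings and its deposited adjusted p-value, per the labels. The submitters' processing notes name cutadapt, HISAT2, STAR, HISAT, Picard, HTSeq, DESeq2 and GRCh38, without roles. The alignment and filters behind the rate constants and the method of adjustment are not given in the sources used here.

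The table's chemistry names TimeLapse, SLAM and TUC were read as the titles' TL, SLAM and TUC. The deposited log2 change was IH over DO: for the 101 values of members it had the sign of the ratio of constants and lay within 0.200 of its log2. Calls used the authors' deposited adjusted p under 0.05 as given. Members were found by name, and counts, medians, ranks and ratios were computed with pandas 2.3.3. The counts of calls and the median log2 change were checked on simulated data, and the name rule on known names. Ranks and ratios were not so checked. Depth and converted share were counted from the deposited counts (HISAT-3N, settings D) of 18 libraries, and the series' further 10 libraries, from 5 chemistries, were not used here. The planned edgeR tests of members' counts were not run, because the reference table used here does not pair Ensembl identifiers with symbols. The members and lists were chosen with earlier results of these data known. Named genes are the ABC and ATP members, of which 3 are not reported here by name or in the figures, and, per chemistry, the SLC members with the 5 highest and 5 lowest IH constants and the 5 largest and 5 smallest called changes. The remaining members and the pairs were added after their values were seen.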

Additional observations from a re-analysis of the deposited data

How the results depend on the processing

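Of 117 recomputed values, 91 moved by less than the spread over the 3 chemistries (counts: less than 1.5 times). The 91 include the counts called among transcripts listed for all 3 chemistries (10, 11 and 10). These came from 21 members rather than from all members of a chemistry, so they do not compare directly with the main counts. The share of all transcripts so listed was not computed by chemistry. At a deposited adjusted p under 0.01 the members called fell to 7 with periodate, 5 with iodoacetamide and 7 with osmium, beside 33.5%, 32.4% and 27% of all transcripts. Under 0.1 the periodate count was 23, beside 62.9% of all transcripts. Without the SLC25 carriers the members' median constant was 0.0498, 0.0473 and 0.0451 under DO with periodate, iodoacetamide and osmium, and 0.0933 with iodoacetamide and 0.103 with osmium under IH. The ratio to other transcripts was then 1.16, 1.33 and 1.10 under DO and 1.08, 1.12 and 1.03 under IH. The SLC25 carriers had low constants as a group, so this setting moves the median up by itself. With only transcripts listed for all 3 chemistries the DO median was 0.0309 with periodate, and with osmium the IH median was 0.101 and the ratios 1.08 under both handlings. Without ABCF2 the periodate DO ratio was 0.781, and without SLC2A4RG and SLC9A3R2, a choice made after seeing the data, 0.921. Means in place of medians gave a log2 change of 1.02 with iodoacetamide, -0.14 relative to other transcripts. Geometric means gave an IH constant of 0.0859 with periodate and ratios of 0.856 and 0.857 with periodate and iodoacetamide. Relative to other transcripts the members' log2 change ran from -0.24 to -0.16 with osmium, -0.17 to -0.06 with periodate and -0.14 to 0.04 with iodoacetamide, so its sign with iodoacetamide depends on the setting. No paired analysis was possible because the rate constants are given once per handling and chemistry, and for the same reason no replicate could be left out. The planned tests of counts and converted shares of members were not run, because the reference table used here does not pair identifiers with symbols. Depth behind a single constant is unknown.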
